A study of Homo sapiens with 16 samples.

Results

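The genes followed here are 10 markers and regulators of epithelial and mesenchymal identity in H1299, an established human non-small cell lung cancer line, after knockdown (KD) of YEATS2. They were chosen by name and not by a cut on measured values, though earlier results of these data were known. The list holds VIM, KRT8 and KRT18 for the intermediate filaments, CDH1 and CDH2 for the cadherins, and ZEB1, ZEB2, SNAI1, SNAI2 and TWIST1 for the transcription factors. Of the 10, 7 were among the 12676 genes of the deposited RNA-seq table, and CDH1, SNAI1 and SNAI2 were not. All the cells had been infected with a pLKO virus. The shCtrl cells received a non-targeting shRNA and the shYEATS2 cells an shRNA against YEATS2, a subunit of the ATAC histone acetyltransferase complex, with 2 RNA-seq libraries in each group. Infection in 8 µg/ml polybrene for 48 h was followed by 2 µg/ml puromycin for 4 to 7 days, as the labels have it (the methods give a shorter selection), so each library is a selected pool of 1 cell line. The labels of the KD libraries do not name the shRNA. The paper describes duplicate RNA-seq with an efficient shRNA and a separate RNA-seq with another that lowered YEATS2 only in part.

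Epithelial cells are held together by E-cadherin (CDH1) and carry keratin filaments, in which the type II keratin KRT8 pairs with the type I keratin KRT18. Mesenchymal cells carry vimentin (VIM) filaments and often N-cadherin (CDH2). In the epithelial-mesenchymal transition (EMT), the zinc finger factors ZEB1, ZEB2, SNAI1 and SNAI2 repress CDH1 and other epithelial genes through E-box sequences in their promoters, and the basic helix-loop-helix factor TWIST1 acts on the same programme.

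The libraries held 34718921 to 39417787 reads in the listed genes. Counts were scaled with TMM factors of 0.952 to 1.05, and levels below are scaled read counts unless a length is named. YEATS2 itself stood at 4482 and 4104 in the shCtrl libraries and at 665 and 673 in the shYEATS2 libraries, a log2 fold change of -2.68 ± 0.10 (SE; edgeR quasi-likelihood test, Benjamini-Hochberg FDR = 0.000583). In such bulk libraries, fewer cells of a kind and less RNA per cell cannot be told apart. Of the markers of cell types, none of 7 for lung epithelium (CDH1 among them), none of 7 for fibroblasts, none of 4 for blood and none of 3 for endothelium were listed, and of 4 squamous markers only SOX2 was. Every listed gene had at least 101 reads in its deepest library, so absence does not show that a gene was silent. SOX2 was counted at 110 and 112 in the shCtrl and at 58 and 32.7 in the shYEATS2 libraries, which do not overlap (log2 fold change -1.30, edgeR quasi-likelihood FDR = 0.0148), and its part in the results below was not tested. It reached 101 reads only in the shCtrl libraries.

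None of the 7 listed identity genes passed an FDR under 0.01 in either direction in the quasi-likelihood test. This is the threshold of the study, whose methods use another test of edgeR, exactTest, without naming a scaling. Over all genes, 25.3% passed it, with 12.5% lower and 12.9% higher in shYEATS2 cells. At an unadjusted p under 0.05 the quasi-likelihood test had 3 of the 7 (VIM, CDH2 and KRT18), against 56.5% of all genes. At an FDR under 0.05 it had 2 lower (VIM and KRT18) and 1 higher (CDH2), against 23.8% and 24.4% of all genes. At the threshold of 0.01, DESeq2 called 1 lower and exactTest 1 lower, KRT18 in both (FDR = 0.000336 and 0.00318), where they called 17.3% and 19.7% of all genes lower, and limma-trend called 0, against 25.8% of all genes. That exactTest was run with TMM. With total counts, an alternative added after the data had been seen, exactTest called CDH2 higher (FDR = 0.000582) and not KRT18 (FDR = 0.0104). It then called 14% of all genes lower and 27.4% higher. Which scaling the study used was not tested. The shCtrl and shYEATS2 libraries did not overlap for any of the 7, as was so for 79.6% of all genes (39.8% lower and 39.7% higher). The absolute log2 fold change had a median of 0.31 over the 7 genes and 0.37 over all genes. The signed change had a median of 0.17 over the 7 and -0.0019 over all genes. Epithelial and mesenchymal members lay on both sides: CDH2, KRT8, ZEB2 and TWIST1 had the higher values in shYEATS2 cells, and VIM, KRT18 and ZEB1 the lower.

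**Figure D1:**
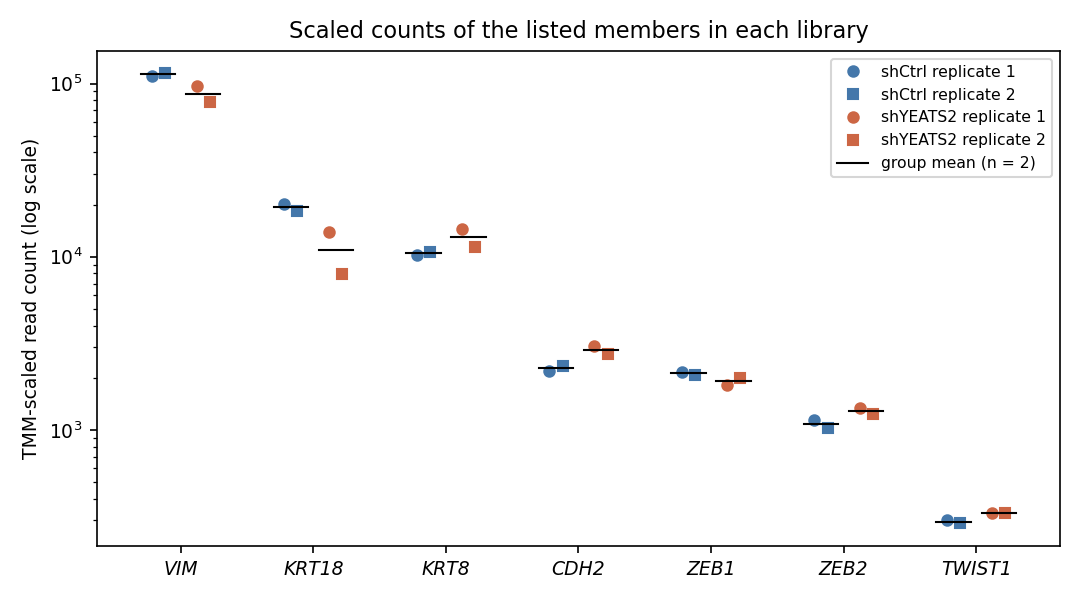
TMM-scaled read counts (log axis) of the 7 listed genes in each shCtrl (blue) and shYEATS2 (orange) library, with circles for replicate 1, squares for replicate 2 and bars for group means of n = 2. Vimentin stood highest, from 78728 to 114660, and TWIST1 lowest, from 289 to 333, and within each gene the libraries of the groups do not overlap.

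Vimentin, the type III intermediate filament protein of mesenchymal cells, lies on chr10:17270240-17279592 of GRCh37 (hg19), plus strand. VIM was counted at 111115 and 114660 in the shCtrl libraries and at 96178 and 78728 in the shYEATS2 libraries. Both KD libraries lay below both controls, and the KD libraries were the wider apart. The means were 112887 ± 2507 and 87453 ± 12339 (SD, n = 2 each), and the log2 fold change of VIM was -0.37 ± 0.12 (SE), or 0.775-fold, with a 95% interval of -0.65 to -0.09 (edgeR quasi-likelihood test, Benjamini-Hochberg FDR = 0.039). VIM was the most deeply counted of the 7. Its antisense neighbour VIM-AS1 was counted at 118 and 158 in shCtrl and 124 and 148 in shYEATS2 libraries, which overlap. VIM-AS1 and VIM share sequence (592 of the 2105 stretches of 50 bases in the VIM transcript), and adding the VIM-AS1 reads to VIM left the change at -0.37.

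KRT8 and KRT18 encode the keratin pair of simple epithelia. KRT8 was counted at 10181 and 10697 in the shCtrl and at 14516 and 11319 in the shYEATS2 libraries. Both KD libraries were above both controls, replicate 2 by a small margin. The log2 fold change of KRT8 was 0.31 ± 0.13 (SE; 95% interval -0.01 to 0.62), from 10439 ± 365 to 12918 ± 2260 (SD, n = 2), and did not pass (quasi-likelihood FDR = 0.0958). KRT18 was counted at 20088 and 18402 in the shCtrl and at 13903 and 7983 in the shYEATS2 libraries. Here both KD libraries were below both controls, and the KD libraries differed from each other by more than the controls did. The means of KRT18 were 19245 ± 1193 and 10943 ± 4186 (SD, n = 2), a log2 fold change of -0.81 ± 0.24 (SE; 95% interval -1.38 to -0.25), or 0.569-fold, with FDR = 0.0283 in the quasi-likelihood test. This difference was larger in size than that of 82.6% of all genes, and was the largest of the 7.

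The calls of KRT18 and VIM turned on the libraries used. Without shYEATS2 replicate 1, KRT18 had a log2 fold change of -1.27 (edgeR's quasi-likelihood FDR = 0.000394) and VIM of -0.52 (FDR = 0.00431), both past the threshold, as 16% of all genes then were on the lower side. Without shYEATS2 replicate 2 the values were -0.47 (FDR = 0.0171) for KRT18 and -0.23 (FDR = 0.088) for VIM. KRT8 moved from 0.31 to 0.12 without shYEATS2 replicate 1 and to 0.48 without shYEATS2 replicate 2, and was not called in either fit. In these fits a group of 1 library is assumed to vary like the other group.

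The keratin pair also has a limit of mapping. KRT8 (chr12:53290971-53343738, minus strand) and KRT18 (chr12:53342655-53346690, plus strand) are neighbours on chromosome 12 of GRCh37, and their annotated exons overlap on opposite strands over 375 bases, chr12:53343000-53343374, which is 26.5% of the 1413-base KRT18 transcript. The library kit does not mark strand, so reads from this stretch cannot be told apart between the genes. Both genes also have processed pseudogenes. In all, 39.2% of the 50-base stretches of the KRT8 transcript and 54.3% of those of KRT18 also occur in other annotated genes, so both counts are uncertain. For KRT18, 326 of the 740 shared stretches occur in KRT8 itself, and 151 in the pseudogene KRT18P11. Both strands were searched, and 326 is as many as the 375-base overlap holds, so these are not a further limit. The table listed KRT8P12 and KRT8P46, and no pseudogene of KRT18. KRT8P12 was counted at 1087 and 930 in the shCtrl and at 1545 and 1813 in the shYEATS2 libraries and passed the threshold as higher (log2 fold change 0.74 ± 0.13 SE, quasi-likelihood FDR = 0.005). KRT8P46 was counted at 35.5 and 27.1 in shCtrl and 54 and 103 in shYEATS2 libraries (log2 fold change 1.33, FDR = 0.03 by the same edgeR test). Only in shYEATS2 replicate 2 did KRT8P46 reach 101 reads, the least that any listed gene had in its deepest library. With both pseudogene rows added to KRT8, its log2 fold change was 0.35 (FDR = 0.0443), an alternative chosen after the data had been seen.

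Ratios of a pair of genes within 1 library do not depend on how libraries are scaled. KRT8 reads per KRT18 read were 0.507 and 0.581 in the shCtrl and 1.04 and 1.42 in the shYEATS2 libraries. The ratio was thus below 1 in both controls and above 1 in both KD libraries, a mean difference of 1.16 on the log2 scale, or 2.24-fold. VIM reads per KRT8 read were 10.9 and 10.7 in the shCtrl and 6.63 and 6.96 in the shYEATS2 libraries, a difference of -0.67 on the log2 scale, and this was the ratio with the least spread between replicates (SD of 0.02 and 0.05, log2). VIM reads per KRT18 read went the other way, 5.53 and 6.23 in shCtrl and 6.92 and 9.86 in shYEATS2 libraries, a difference of 0.49. Set against KRT8, vimentin was therefore lower in the KD libraries, and set against KRT18 it was higher. Leaving out shYEATS2 replicate 2 brought the latter difference to 0.24, and leaving out replicate 1 to 0.75. For each of these 3 ratios and for ZEB1 over ZEB2 the groups did not overlap, and the exact permutation test over libraries gave p = 0.333 (two-sided), the smallest that 2 against 2 libraries can give. The 4 ratios share genes and are not independent of each other, and the overlap of KRT8 and KRT18 bears on those that hold a keratin.

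**Figure D2:**
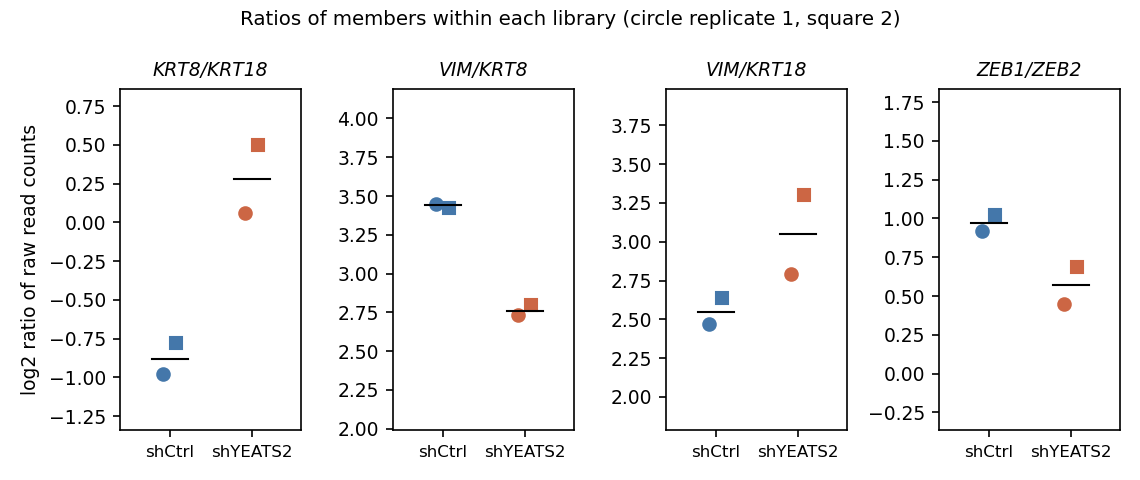
Ratios of raw read counts of KRT8/KRT18, VIM/KRT8, VIM/KRT18 and ZEB1/ZEB2 within each library (log2 axis, the same span in each panel), with circles for replicate 1, squares for replicate 2 and bars for group means of n = 2. KRT8/KRT18 lies at -0.98 and -0.78 in shCtrl and at 0.06 and 0.50 in shYEATS2 libraries, the widest separation of the 4 panels.

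Of the cadherins, only CDH2 was listed. N-cadherin is the calcium-dependent adhesion protein of neural and mesenchymal cells, and its gene lies on chr18:25512843-25757910, minus strand. CDH2 was counted at 2199 and 2325 in the shCtrl and at 3058 and 2742 in the shYEATS2 libraries, both KD libraries above both controls. The means were 2262 ± 88.7 and 2900 ± 224 (SD, n = 2), and the log2 fold change of CDH2 was 0.36 ± 0.10 (SE; 95% interval 0.12 to 0.60), or 1.28-fold (edgeR's quasi-likelihood FDR = 0.0261). The scaling mattered here: with total counts in place of TMM the change of CDH2 was 0.48 with FDR = 0.00882, past the threshold. That scaling moved the median of all genes from -0.0019 to 0.118 on the log2 scale and the calls over all genes from 12.5% lower and 12.9% higher to 9.2% lower and 18.6% higher. CDH1, on chr16:68771195-68869440, was not analysed here, so no ratio of the cadherins is given.

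The transcription factors showed smaller differences. ZEB1 (chr10:31607424-31818742) was counted at 2170 and 2066 in the shCtrl and at 1824 and 1995 in the shYEATS2 libraries. Its log2 fold change was -0.15 ± 0.10 (SE; 95% interval -0.38 to 0.08; quasi-likelihood FDR = 0.24), and with total counts it was close to 0, at -0.03. ZEB1-AS1, the antisense RNA beside it, was counted at 265 and 336 in shCtrl and 232 and 256 in shYEATS2 libraries, so that its libraries also lay lower in the KD group without passing (log2 fold change -0.30, edgeR FDR = 0.19). ZEB2 (chr2:145121931-145278624), the paralogue of ZEB1 with the same kind of zinc finger clusters, was counted at 1144 and 1022 in the shCtrl and at 1337 and 1235 in the shYEATS2 libraries. The KD libraries of ZEB2 were the higher ones (log2 fold change 0.25 ± 0.11 SE; 95% interval -0.02 to 0.51; quasi-likelihood FDR = 0.104), the opposite side from ZEB1. Within the libraries, ZEB1 reads per ZEB2 read were 1.9 and 2.02 in shCtrl and 1.36 and 1.62 in shYEATS2, a difference of -0.40 on the log2 scale.

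TWIST1 (chr7:19060614-19157259) was the least counted of the 7, with 302 and 289 in the shCtrl and 332 and 333 in the shYEATS2 libraries. The log2 fold change of TWIST1 was 0.17 ± 0.14 (SE; 95% interval -0.15 to 0.49; quasi-likelihood FDR = 0.325), and the 2 KD libraries agreed more closely (SD of 0.848) than the controls (SD of 9.75). SNAI1 (chr20:48599517-48605423) and SNAI2 (chr8:49830157-49834299) were not analysed here. Each gene listed in the table had at least 101 reads in its deepest library. Whether the 3 absent genes were counted below such a level was not tested, and no level is given for them.

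**Figure D3:**
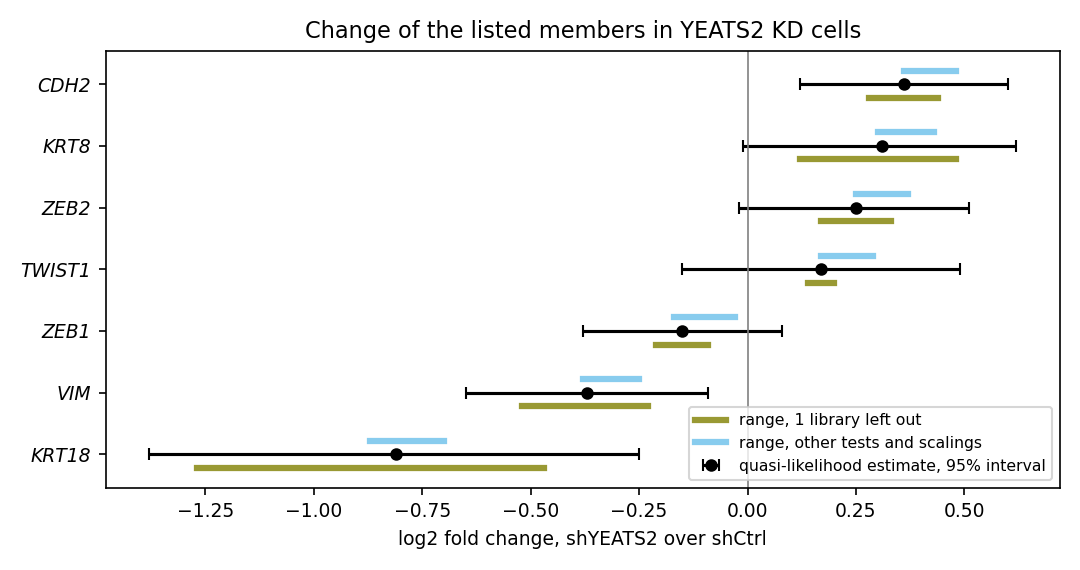
Log2 fold change (shYEATS2 over shCtrl) of the 7 listed genes from the quasi-likelihood test with its 95% interval (black), the range with each library left out in turn (olive) and the range over the other tests and scalings (light blue). No gene crosses 0 under any setting shown, and only the intervals of CDH2 (0.12 to 0.60), VIM (-0.65 to -0.09) and KRT18 (-1.38 to -0.25) lie on 1 side of it.

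Per kilobase of merged exons, the order of the shCtrl levels was VIM at 21810 ± 484 scaled reads (SD, n = 2), KRT18 at 6271 ± 389, KRT8 at 1517 ± 53.1, CDH2 at 264 ± 10.3, ZEB1 at 245 ± 8.56, TWIST1 at 148 ± 4.88 and ZEB2 at 41.4 ± 3.29. Vimentin was the 30th of the 12465 genes with a length, and KRT18 and KRT8 were at rank 175 and 1084. The neighbours CDH2 (256 and 271) and ZEB1 (251 and 239) differed by little more than their spread, and the libraries of the other neighbours did not overlap. In shYEATS2 cells, CDH2 stood at 338 ± 26 and ZEB1 at 221 ± 14. These levels depend on the length used. ZEB2 has 26151 bases of merged exons and a canonical transcript of 9265, and CDH2 has 8583 and 4016. With canonical transcripts the shCtrl order was the same, but CDH2 (563 ± 22.1 per kilobase) and ZEB1 (357 ± 12.5) stood further apart. In shYEATS2 cells, KRT18 (9839 and 5649 per kilobase) and KRT8 (8137 and 6345) then overlapped.

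The promoters were searched for the E-box to which ZEB and SNAI proteins bind, CAGGTG on either strand (CACCTG on the other), in RefSeq windows of 300 bases from 250 before to 50 after a start (GRCh38.p14). Windows were given for VIM, CDH2, ZEB1, ZEB2 and KRT8. Of all 35116 windows, 20.6% held the motif. Among the members, 2 of the 7 ZEB1 windows held it, with 1 site at -57 in the first and 3 sites at -242, -85 and 34 from the start in the third, and the windows of VIM, CDH2, ZEB2 and KRT8 did not. The ZEB1 window with 3 sites (chr10:31318966-31319265, plus strand) is shown because it carries the most, and the first CDH2 window (chr18:28177081-28177380, minus strand) as one without, both 5′ to 3′ with the E-box in capitals.
ZEB1 promoter: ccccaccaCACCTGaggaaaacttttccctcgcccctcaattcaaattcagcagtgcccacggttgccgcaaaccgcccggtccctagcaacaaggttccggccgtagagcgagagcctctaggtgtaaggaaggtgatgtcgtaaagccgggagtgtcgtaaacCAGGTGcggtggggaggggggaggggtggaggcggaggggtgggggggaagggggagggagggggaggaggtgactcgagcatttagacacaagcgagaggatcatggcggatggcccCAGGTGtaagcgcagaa
CDH2 promoter: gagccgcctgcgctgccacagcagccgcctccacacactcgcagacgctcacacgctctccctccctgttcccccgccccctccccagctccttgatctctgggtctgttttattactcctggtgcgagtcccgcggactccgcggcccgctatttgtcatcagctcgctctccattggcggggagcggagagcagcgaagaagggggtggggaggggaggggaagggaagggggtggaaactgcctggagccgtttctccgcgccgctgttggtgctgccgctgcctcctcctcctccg
The letters describe the windows only, and no binding was measured here. Of these windows, 61.7% of the bases of ZEB1 and 67% of those of CDH2 are G or C. Neither ZEB1, with 3 sites in this window, nor CDH2, with none, passed the test of expression.

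Genes with the most similar profile were sought by the distance between log2 values centred on each gene's mean, over 4 libraries and among 6995 genes with a mean of at least 1000. Nearest to VIM were MTHFD1L (distance 0.022) and CLASRP (0.026), and nearest to KRT18 were XRCC2 (0.088) and FLNA (0.103), the actin crosslinker filamin A. ZEB2 lay within 0.005 of AP2M1, an adaptor subunit of clathrin coats, and ZEB1 within 0.024 of THUMPD1. KRT8 was nearest to ABCA3 (0.039) and CDH2 to PLEKHG5 (0.039). Over only 4 libraries such distances are a description of these libraries.

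Lists of related genes were set beside the 10, without the 10 themselves. Of 55 epithelial junction and identity genes, 33 were listed in the table, of which 3 were called lower (9.09%) and 6 higher (18.2%), against 12.5% and 12.9% of all genes, with a median log2 fold change of 0.34. Fewer of them were called higher without shYEATS2 replicate 2, as was so for all genes. The calls went both ways among proteins of cell junctions. PERP, a desmosome protein, fell from 3695 and 4224 to 1433 and 1127 (log2 fold change -1.63 ± 0.14 SE, quasi-likelihood FDR = 0.000975), and MLLT4 (afadin) and the desmosomal cadherin DSG2 fell by 1.09 and 0.49 on the log2 scale. The tight junction protein TJP3 rose from 23.7 and 42.3 to 148 and 327 (2.85 ± 0.46 SE, FDR = 0.0039), the keratin KRT7 rose by 1.55 and the adhesion receptor PVRL2 (nectin-2) by 0.98. Every listed gene had at least 101 reads in its deepest library, which TJP3 and KRT7 reached only in shYEATS2 libraries. If that was the floor for listing, these genes were listed only through the group where they are high, and the share called higher includes them. EPCAM, GRHL2, ESRP1, ESRP2, CLDN7 and KRT19 were among the 22 epithelial genes not in the table, as CDH1 was.

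Of 51 mesenchymal genes, 36 were listed, of which 3 were called lower (8.33%) and 11 higher (30.6%), against 12.5% and 12.9% of all genes. The median log2 fold change was 0.51 against -0.0019 over all genes. SPARC, a matrix glycoprotein, rose by 2.16 on the log2 scale, the collagen gene COL5A2 by 1.89 and the gelatinase MMP2 by 1.85, each from shCtrl means under 100 scaled reads (53, 54.5 and 48.7). Every listed gene had at least 101 reads in its deepest library, which these 3 reached only in shYEATS2 libraries. If that was the floor for listing, they were listed only through the group where they are high. The same held for TNC and PDGFRB, also among the 11 called higher. The share called higher and the median include such genes. AXL, a receptor tyrosine kinase, fell from 53404 and 54601 to 17266 and 10382 (log2 fold change -1.97 ± 0.22 SE, quasi-likelihood FDR = 0.00146), and the membrane protease MMP14 and the ligand WNT5B fell by 0.91 and 0.64. COL1A1, COL1A2, COL3A1, CDH11 and POSTN were not in the table. Fewer mesenchymal genes were called lower without shCtrl replicate 1 and more without shYEATS2 replicate 1, as was so for all genes.

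**Figure D4:**
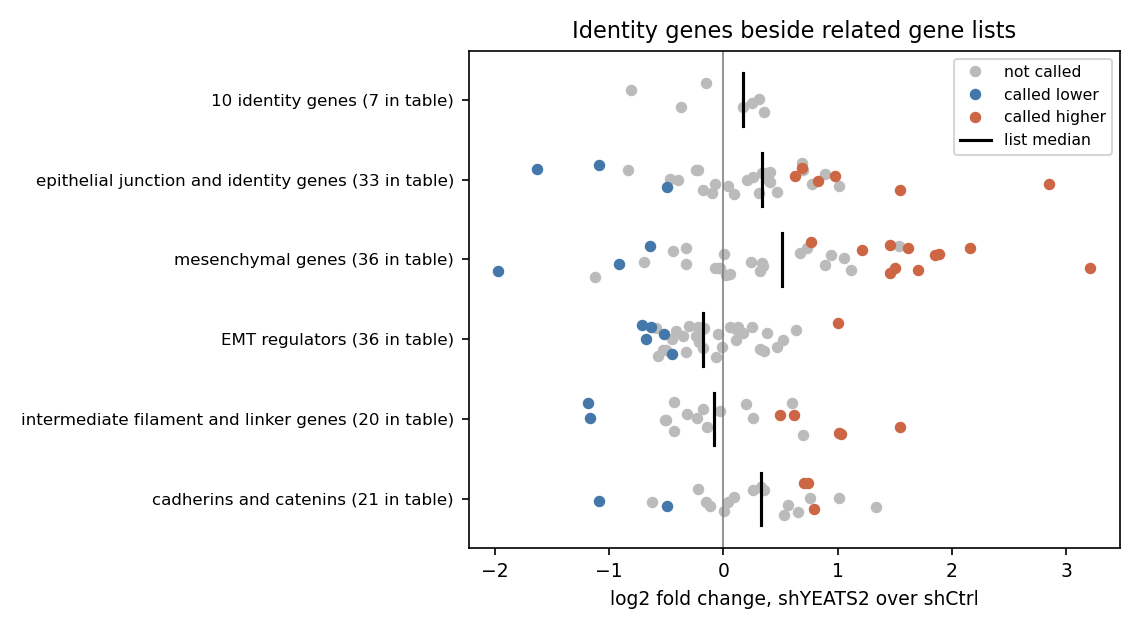
Log2 fold change (shYEATS2 over shCtrl) of each listed gene of the 10 identity genes and of 5 related lists, in grey where not called and in blue or orange where called lower or higher at an FDR under 0.01, with the list median as a bar. No identity gene is coloured, while the mesenchymal list has 11 genes called higher and 3 lower.

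Of 50 EMT regulators, which hold partners and cofactors of the ZEB, SNAI and TWIST factors, 36 were listed, with 5 called lower (13.9%), 1 higher (2.78%) and a median of -0.18. The share called lower was near the 12.5% of all genes, and the share called higher, which rests on 1 gene, was below their 12.9%. The median over all genes was -0.0019. The kinase CSNK1A1 fell by 0.71, TCF12, an E protein that can pair with TWIST1, by 0.68 and the Polycomb subunit SUZ12 by 0.63 on the log2 scale. FBXW7, a substrate receptor of a ubiquitin ligase, rose from 428 and 419 to 775 and 917 (log2 fold change 1.00 ± 0.13 SE, quasi-likelihood FDR = 0.00201). The regulators called higher numbered 1 here but 4 with exactTest and DESeq2, which called 20.4% and 17% of all genes higher. Those called lower were fewer without either shCtrl library or shYEATS2 replicate 2, as was so for all genes.

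Of 45 intermediate filament and linker genes, 20 were listed, with 2 called lower (10%, against 12.5% of all genes), 5 higher (25%, against 12.9%) and a median of -0.09. More were called lower without shYEATS2 replicate 1, and fewer higher without either shCtrl library, as was so for all genes. Both calls on the lower side were nuclear lamins, LMNB1 (from 10992 and 10891 to 5391 and 4261, log2 fold change -1.18) and LMNB2 (-1.17), while KRT7, the keratin regulator FAM83H and the lens filament gene BFSP1 rose by 1.55, 1.03 and 1.01. Only in shYEATS2 libraries did KRT7 reach 101 reads, the least that any listed gene had in its deepest library. The list of 52 cadherins and catenins also holds partners such as MLLT4 (afadin) and VCL (vinculin). Of the 52, 21 were listed in the table, with 2 called lower (MLLT4 and DSG2, 9.52%), 3 higher (14.3%) and a median of 0.33. Both shares were near those of all genes, and fewer were called higher without shCtrl replicate 1, as was so for all genes. The 3 higher were CELSR3 (0.79), CDH24 (0.74) and FAT4 (0.71), members of the cadherin superfamily, and CDH2, at 0.36, lay close to the median of this list.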

How the data were processed

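RNA was measured in 4 H1299 libraries, 2 shCtrl and 2 shYEATS2, grouped by their labels. The authors mapped reads to hg19 and deposited raw HTSeq read counts per gene, which are whole numbers without normalization. The mapper is RUM in the methods and TopHat2 2.0.10 in the submitters' processing notes, and the annotation is not given in the sources used here. The table also holds the authors' fold changes, p-values and FDR values, which were not used. The ChIP-seq samples of the series were not analysed here.

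The filter, 10 reads or more in 2 or more libraries, kept all 12676 genes. The quasi-likelihood test of edgeR (4.0.16, in R 4.3.3) was fitted over them after TMM scaling, and calls are genes whose Benjamini-Hochberg FDR was under 0.01. SEs are the absolute log2 fold change divided by the root of F, and 95% intervals are not adjusted. Scaled counts are TMM-scaled to the mean effective library size. Alternatives were DESeq2 (1.42.0), exactTest, limma-trend (3.58.1) with a prior count of 1, total counts, DESeq2 size factors, the upper quartile, no filter, only genes with a mean count of 100 or more, the replicate number as a block, thresholds of FDR 0.05 or of 1.5-fold beside FDR 0.01, and leaving out 1 library at a time. Added after the data had been seen were exactTest with total counts and the sum of a gene with its antisense or pseudogene rows. The script was tested on simulated data. A planned check is not reported here.

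The members and lists were chosen with earlier results of these data known, so no test over a list was made. Besides the members, YEATS2, their antisense or pseudogene rows and markers of cell types, the text names from each list the 3 largest falls and 3 largest rises with FDR under 0.01, a mean of at least 100 and no overlap of groups, and the 2 nearest profiles. Absent list genes, and genes in the closing section, were named after their values or absence had been seen. Positions and lengths come from GENCODE on GRCh37, which matched 12465 identifiers (98.3%). Nothing in the labels says whether replicates came from separate cultures, and the paper calls them biological replicates. Replicates differed beyond sampling noise (chi-square per degree of freedom of 17.9 and 38).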

Additional observations from a re-analysis of the deposited data

How the results depend on the processing

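The 7 listed identity genes kept the sign of their log2 fold change under every alternative run. Under the replicate block, members called lower numbered 2 (VIM, FDR = 0.00949, and KRT18, FDR = 0.00136, both by edgeR's quasi-likelihood test) and higher 0. Same-numbered libraries had deviations with a correlation of 0.403, but with 2 pairs and no label that ties them the numbers were not taken to pair the samples. Over all genes the block raised the calls from 3211 to 5457, or 21.4% lower and 21.6% higher. DESeq2 and exactTest each called 1 member lower (KRT18, FDR = 0.000336 and 0.00318), total counts and exactTest with total counts each called 1 higher (CDH2, FDR = 0.00882 and 0.000582 for edgeR), where 18.6% and 27.4% of all genes were called higher, and an FDR under 0.05 gave 2 lower and 1 higher.

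The lists moved more, and so did the calls over all genes, which were 12.5% lower and 12.9% higher in the reported fit. With exactTest (19.7% of all genes lower and 20.4% higher), the epithelial genes called higher numbered 13, the mesenchymal higher 17, the EMT regulators lower 8 and higher 4, the filament genes lower 4 and the cadherins and catenins higher 6. With DESeq2 (17.3% and 17%), EMT regulators called lower numbered 8 and higher 4, and cadherins and catenins higher 8. With total counts (9.2% and 18.6%), epithelial genes called higher numbered 10, EMT regulators lower 3 and higher 4, and cadherins and catenins lower 1 and higher 6, and the upper quartile (12.6% and 14.4%) gave EMT regulators higher 2 and cadherins and catenins lower 1. Under the replicate block (21.4% and 21.6%), epithelial higher numbered 14, mesenchymal lower 7 and higher 19, EMT regulators lower 9 and higher 4, filament genes lower 5, and cadherins and catenins higher 9. At an FDR under 0.05 (23.8% and 24.4%) these were 15, 5 and 17, 9 and 6, 4, and 8. A change of at least 1.5-fold (10.7% and 10.7%) left EMT regulators lower at 3 and cadherins and catenins lower at 1. The cause of these shifts was not tested, apart from the looser or stricter thresholds.

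Leaving out 1 library at a time moved the calls over all genes too. Fewer genes passed in each direction without either shCtrl library or shYEATS2 replicate 2, and more without shYEATS2 replicate 1. Of the members, VIM and KRT18 were called lower without shYEATS2 replicate 1, and no member was called in the other fits. Epithelial genes ranged from 2 to 4 lower and 3 to 8 higher (3 without shYEATS2 replicate 2), mesenchymal genes from 1 (without shCtrl replicate 1) to 6 (without shYEATS2 replicate 1) lower and 10 to 12 higher, and EMT regulators from 1 (without shCtrl replicate 1; 2 without shCtrl replicate 2 and 3 without shYEATS2 replicate 2) to 7 lower and 1 to 4 higher (4 without shYEATS2 replicate 1, 2 without shCtrl replicate 1). Filament genes ranged from 2 to 4 lower (4 without shYEATS2 replicate 1) and 3 to 6 higher (3 without either shCtrl library), and cadherins and catenins from 1 (without any library but shYEATS2 replicate 1) to 2 lower and 1 (without shCtrl replicate 1) to 4 higher. The log2 ratio of KRT8 to KRT18 ranged from 0.94 to 1.39, VIM to KRT8 from -0.71 to -0.64, VIM to KRT18 from 0.24 (without shYEATS2 replicate 2) to 0.75 (without shYEATS2 replicate 1) and ZEB1 to ZEB2 from -0.52 to -0.28. Genes with fewer than 101 reads in every library lie outside what the table shows.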

Other observations

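Partners of the EMT factors were looked at by role, with genes chosen after their values had been seen. Among the E proteins that can pair with TWIST1, TCF3 was counted at 6910 and 6909 in shCtrl and 6388 and 5451 in shYEATS2 libraries (log2 fold change -0.22 ± 0.11 SE), and TCF4 at 1591 and 1569 against 1211 and 1099 (-0.45 ± 0.10), and of these with TCF12 only TCF12 passed the test. Among the corepressors used by ZEB and SNAI factors, KDM1A, a histone demethylase, fell from 6747 and 7151 to 5076 and 5096 (-0.45 ± 0.09 SE, edgeR's quasi-likelihood FDR = 0.00791). CTBP1 had a log2 fold change of -0.18, CTBP2 of -0.53, HDAC1 of 0.06, HDAC2 of -0.30 and RCOR1 of 0.13, none past the threshold. Further cofactors on the list of regulators did not pass either: SIN3A (0.11), SMARCA4 (0.47), AJUBA (-0.01) and LIMD1 (-0.06). EZH2, the Polycomb methyltransferase, fell from 3838 and 4056 to 2686 and 2819 (-0.52 ± 0.09 SE, FDR = 0.00556 by the same edgeR test), beside SUZ12, while EED, at -0.41, did not pass (FDR = 0.0293).

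The catenins that bind cadherins such as CDH2, or link them to actin, did not pass the test for CTNNB1, CTNNA1 and CTNND1. CTNNB1 was counted at 11185 and 11519 in shCtrl and 11748 and 12414 in shYEATS2 libraries (log2 fold change 0.09 ± 0.09 SE), CTNNA1 at 16116 and 16268 against 20060 and 20687 (0.33 ± 0.09) and CTNND1 at 6772 and 6543 against 7474 and 8475 (0.26 ± 0.10). JUP, a catenin that is also found in desmosomes, had a larger difference and did not pass either. It was counted at 118 and 219 against 309 and 369 (1.01 ± 0.28 SE, edgeR's quasi-likelihood FDR = 0.0251). FN1, the fibronectin gene, rose from 1705 and 2152 to 4649 and 5990 (1.46 ± 0.16 SE, FDR = 0.00141) and its receptor subunit ITGA5 from 2699 and 2631 to 7973 and 9397 (1.70 ± 0.11 SE, FDR = 0.000793, both by edgeR's quasi-likelihood test).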
